A study of Mus musculus with 2 samples.

Results

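The genes described here are 10 members of the NF-κB system, chosen by their symbols among the 32285 genes of the deposited matrices: the 5 subunit genes Nfkb1, Nfkb2, Rel, Rela and Relb, and 5 genes of the feedback side, Nfkbia, Nfkbie, Nfkbiz, Bcl3 and Tnfaip3. All 10 were found in both libraries. They were measured by droplet single-cell RNA-seq in mouse retinas after an injection of the bacterial cell wall product LPS into the vitreous (0.5 µg per eye). The knockout library came from GLAST-CreER; Atg5fl/fl mice given 4-hydroxy-tamoxifen, and the control library from Atg5fl/fl mice, for which no Cre and no tamoxifen are listed. The comparison asks what deleting Atg5 in these glia does to the inflamed retina. Both groups carry the floxed Atg5 alleles and both received LPS. GLAST (Slc1a3) regulatory sequence drives CreER in retinal Müller glia and also in astrocytes, and Atg5 encodes a protein needed to build autophagosomes. Each library is 1 pool of 6 retinas, so genotype, Cre, tamoxifen and library cannot be told apart, and the spread between animals is unknown. No uninjected eye was analysed here, so no value below measures a response to LPS itself. The age of the mice and the time between injection and harvest are not given in the sources used here.

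NF-κB is a family of dimeric transcription factors. In resting cells, inhibitor of κB (IκB) proteins hold most dimers in the cytoplasm; signals from toll-like receptors activate the IκB kinase (IKK) complex, which marks IκB for degradation and frees the dimers to enter the nucleus. Among the first genes the dimers switch on are those of IκB proteins and of the ubiquitin-editing enzyme encoded by Tnfaip3, which close the loop by ending the signal. In the retina, Müller glia, the radial glia that span its thickness, are known to take part in this response to injury and infection together with vessels and invading leukocytes.

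Promoters are printed for 3 members because the loop described above runs through them: Nfkbia and Nfkbie encode inhibitors and Rel a subunit. The RefSeq promoter table (GRCm38.p6, which is mm10) held 7 of the 10 members. The 250 bases before each start were searched on both strands for the κB consensus motif of 10 bases, with overlapping matches allowed. Capitals mark every base inside a match.

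Nfkbia: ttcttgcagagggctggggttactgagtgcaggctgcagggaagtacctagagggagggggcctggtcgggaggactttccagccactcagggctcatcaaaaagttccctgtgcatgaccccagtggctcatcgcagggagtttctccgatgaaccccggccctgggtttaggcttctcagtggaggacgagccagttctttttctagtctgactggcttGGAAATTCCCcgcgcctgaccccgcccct
Nfkbie: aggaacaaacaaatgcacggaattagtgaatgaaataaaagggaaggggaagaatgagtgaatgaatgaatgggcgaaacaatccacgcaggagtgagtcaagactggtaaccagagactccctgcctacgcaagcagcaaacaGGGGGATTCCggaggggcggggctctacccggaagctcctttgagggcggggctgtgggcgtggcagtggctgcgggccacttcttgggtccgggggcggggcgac
Rel: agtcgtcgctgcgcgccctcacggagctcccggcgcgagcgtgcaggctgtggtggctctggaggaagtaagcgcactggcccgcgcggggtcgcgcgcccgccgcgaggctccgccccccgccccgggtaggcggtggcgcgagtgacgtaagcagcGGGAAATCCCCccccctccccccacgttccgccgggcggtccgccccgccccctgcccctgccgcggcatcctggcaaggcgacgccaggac

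The Nfkbia window lies at chr12:55492648-55492897 on the minus strand, the Nfkbie window at chr17:45555450-45555699 on the plus strand and the Rel window at chr11:23770970-23771219 on the minus strand. The match in Nfkbia begins 29 bases before the start, that in Nfkbie 106 bases before it, and the overlapping pair in Rel 92 and 91 bases before it. Tnfaip3 held matches at GGGACACCCC and GGAAATCCCC, and Nfkb2 held matches at the windows of its 3 listed starts, among them GGGAATTCCC and GGGACTTTCC. The Bcl3 and Rela windows held none. In all, 5 of the 7 members held a match in at least 1 window, and 7.25% of the 32851 windows in the table did. A match is a stretch of letters and was not tested for binding. Nfkb1, Relb and Nfkbiz have no entry in that table.

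Before the values, the libraries differ in depth and make-up. After the filters in the study's methods (at least 500 genes and under 25% mitochondrial unique molecular identifiers, UMIs), the knockout library kept 4662 cells and the control library 8274, with medians of 6808 and 1396 UMIs per cell. Clusters were named from marker lists, and names ending in "-like" rest on these markers; 6 clusters with 25.2% of knockout cells and 40.5% of control cells stayed unnamed, among them 1 with rod genes and lens crystallins that held 625 knockout and 2912 control cells. The Müller-like class held all 12 of its markers in both libraries, summing to 17389 CPM in knockout and 20614 CPM in control cells, and no astrocyte cluster was named. 15 cell barcodes occurred in both libraries. The classes used most here are Müller-like (637 knockout and 474 control cells), neutrophil-like (164 and 226), monocyte and macrophage-like (51 and 94), endothelial-like (50 and 55) and rod-like cells (323 and 2640). Levels are in CPM, a gene's summed UMIs per 1000000 UMIs of that class in that library. With 1 library per group there is no test between groups, and every interval in parentheses is an exact 95% interval that covers counting error only. A gene is called higher or lower here when its CPM ratio, knockout over control, is at least 1.5-fold in that direction, provided that the class holds at least 100 of its UMIs when the libraries are added.

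The targeted gene gave no check of the deletion. Atg5 stood at 17.4 CPM in knockout and 21.4 CPM in control Müller-like cells (ratio 0.814, 0.679 to 0.977), and the deposited counts do not show where along the gene these UMIs lie.

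**Figure D1:**
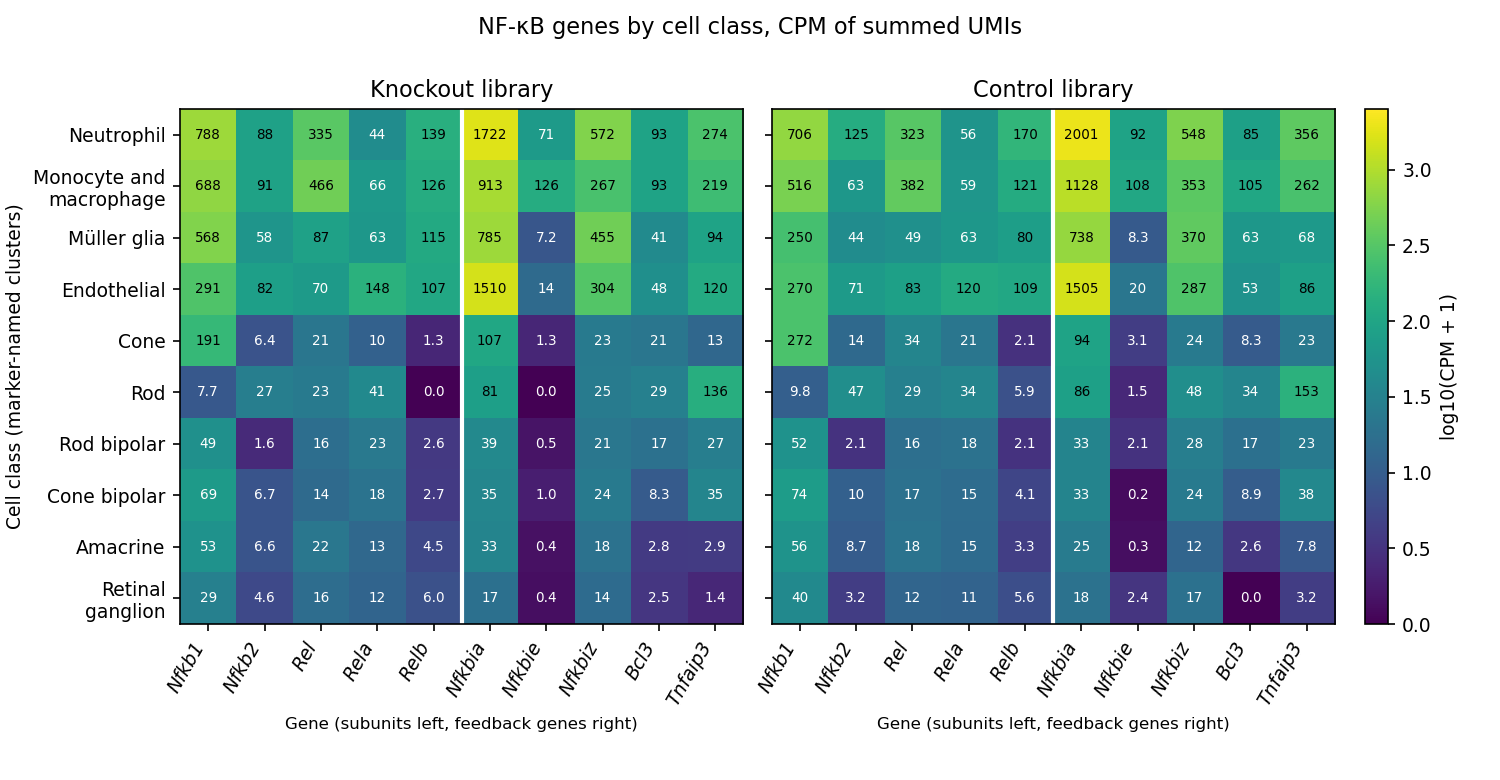
CPM of the 10 genes (columns, subunits left of the white line) in 10 marker-named cell classes (rows), with the knockout library in the left panel and the control library in the right; colour is log10(CPM + 1) and the printed number is the CPM. Neutrophil-like, monocyte and macrophage-like, Müller-like and endothelial-like cells fill the bright rows, while Nfkb1 is high in cone-like but not in rod-like cells and Tnfaip3 the reverse.

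Across the retina, the 10 genes were highest in leukocyte-like, Müller-like and endothelial-like cells, with exceptions in photoreceptors. The exceptions were Tnfaip3 in rod-like cells and, in the control library, Nfkb1 in cone-like and Nfkb2 in rod-like cells. Nfkbia, which encodes IκBα, was the most abundant member in neutrophil-like, monocyte and macrophage-like, Müller-like and endothelial-like cells of both libraries. It stood at 1722 CPM in knockout and 2001 CPM in control neutrophil-like cells, and at 913 and 1128 CPM in knockout and control monocyte and macrophage-like cells. Endothelial-like cells had 1510 CPM in the knockout library and 1505 CPM in the control library, and the 5 cells with most Nfkbia UMIs held 26.9% of the knockout and 36.2% of the control UMIs. Neuronal classes lay far lower, and the highest Nfkbia level among them was that of cone-like cells, at 107 CPM in knockout and 93.8 CPM in control cells.

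Rel and Nfkbie were highest in myeloid cells. Rel encodes c-Rel, the subunit best known from lymphoid and myeloid cells, and Nfkbie encodes IκBε, an inhibitor that binds dimers with c-Rel. Rel stood at 466 CPM in knockout and 382 CPM in control monocyte and macrophage-like cells, and at 335 and 323 CPM in knockout and control neutrophil-like cells. Nfkbie stood at 126 CPM in knockout and 108 CPM in control monocyte and macrophage-like cells, and at 71.2 and 92.4 CPM in knockout and control neutrophil-like cells. Müller-like cells had 7.17 CPM of Nfkbie in the knockout library and 8.30 CPM in the control library, far below both leukocyte classes. Over the 19 class and library profiles with at least 50 cells, the 2 genes followed each other with a Pearson correlation of 0.98 on the log2 scale, as a description of profiles that share libraries and depth.

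Rela, which encodes the main transactivating subunit, had another order. Its highest level was in endothelial-like cells, at 148 CPM (133 to 166) in the knockout and 120 CPM (104 to 137) in the control library. Müller-like cells had 62.7 CPM in the knockout and 62.8 CPM in the control library, and neutrophil-like cells 43.7 and 55.9 CPM in the knockout and control libraries. In the knockout library, monocyte and macrophage-like and Müller-like cells did not differ in Rela beyond counting error; in the control library the same held for Müller-like, monocyte and macrophage-like and neutrophil-like cells, taken as neighbours in the order. Relb, which encodes the partner of the Nfkb2 product in the non-canonical pathway, lay between 80.4 and 170 CPM in all 4 of these classes and libraries, and at most at 6.00 CPM in any neuronal class.

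The genes most like each member were read over the same 19 profiles among 12723 genes, as a description only. For Rel they were the macrophage lysosomal gene Cd68 (correlation 0.986), Rhog and Neurl3. For Nfkbie they were Unc93b1 (0.991), which encodes a chaperone of nucleic-acid-sensing toll-like receptors, AA467197 and Cyfip1. Nfkbia was nearest to Ifitm2 (0.979), S100a11 and Gng5, and Nfkbiz to Carhsp1 (0.987), Ifitm2 and Cd82. Relb was nearest to Glipr2 (0.985), Morrbid and Sdcbp, Nfkb2 to Pxn (0.979), Etf1 and Cmtm6, and Rela to Kif1c (0.966), Vamp3 and Elf1. Bcl3 was nearest to Tspo (0.95), Lman2 and Vamp8, and Tnfaip3 to Trim25 (0.933), Atf1 and St3gal1. Nfkb1 had the loosest nearest gene of the 10, Mrpl33 at 0.920, before Chmp4b and H2afj.

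Photoreceptors split the family. Nfkb1, whose product is cut from a precursor to the DNA-binding p50 subunit, stood at 191 CPM (162 to 225) in knockout and 272 CPM (240.1 to 307) in control cone-like cells, against 7.74 and 9.81 CPM in knockout and control rod-like cells. Cone-like cells of both libraries therefore lay far above rod-like cells, and those of the control library were not told apart by counting error from endothelial-like cells at 269.7 CPM. When each cell was thinned to 1000 UMIs, Nfkb1 was found in 18.7% (11.3 to 28.2) of knockout and 25.7% (17.9 to 34.7) of control cone-like cells, and in 0.621% (0.0157 to 3.41) of knockout and 0.840% (0.460 to 1.41) of control rod-like cells. Thinning left out 3 knockout and 5 control cone-like cells and 162 and 974 knockout and control rod-like cells, which have median depths of 999 and 1112 UMIs. The rod-like level was close to an estimate of free RNA: scaled by the neutrophil gene S100a8 and the Müller gene Lcn2 found in rod-like cells, the free-RNA estimate for Nfkb1 was 12.2 CPM in the knockout and 8.38 CPM in the control library.

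Tnfaip3, which encodes the ubiquitin-editing enzyme that shuts signalling off upstream of IKK, ran the other way. Rod-like cells had 136 CPM (106 to 171) in the knockout and 153 CPM (140.5 to 167) in the control library, against 12.8 and 22.9 CPM in knockout and control cone-like cells. That placed rod-like cells above Müller-like cells, which had 93.6 CPM in the knockout and 68.3 CPM in the control library. The free-RNA estimate for Tnfaip3 in rod-like cells was 2.44 CPM in the knockout and 3.33 CPM in the control library. In thinned cells Tnfaip3 was found in 14.3% (9.28 to 20.7) of knockout and 13.8% (12.2 to 15.6) of control rod-like cells, and in 0.211% and 1.71% of knockout and control amacrine-like cells. Unthinned, the shares were 16.4% and 16.1% in knockout and control rod-like cells. Tnfaip3 made up 36.6% of the 191 UMIs of all 10 members in knockout and 34.2% of the 1508 in control rod-like cells, against 4.12% and 3.94% in knockout and control Müller-like cells. Rod-like cells are the shallowest of the named classes, and Relb and Nfkbie were at or near 0 there (0 UMIs of each in the knockout library, which allows up to 5.81 CPM).

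The other neuronal classes held little of the family. In rod bipolar-like, cone bipolar-like, amacrine-like and retinal ganglion-like cells Nfkb1 was the highest member, at 29.0 to 69.4 CPM in the knockout and 39.7 to 74.5 CPM in the control library. The other 9 members did not exceed 38.8 CPM in knockout or 37.6 CPM in control cells of these classes.

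In Müller-like cells, Nfkb1 and Rel were higher in the knockout library and Bcl3 was lower. Nfkb1 stood at 568 CPM (556 to 580) in the knockout and 250.1 CPM (241 to 260) in the control library, a ratio of 2.27 (2.17 to 2.37). Rel stood at 87.4 CPM (82.7 to 92.4) in the knockout and 49.2 CPM (45.2 to 53.6) in the control library, a ratio of 1.78 (1.60 to 1.97). For both genes the counting intervals of the libraries are well apart. The other 3 subunits stayed within 1.5-fold: Relb at 115 CPM in the knockout and 80.4 CPM in the control library (1.43, 1.32 to 1.56), and Nfkb2, whose product pairs with RelB, at 57.9 CPM in the knockout and 43.6 CPM in the control library (1.33, 1.19 to 1.49). Rela had a ratio of 0.998 (0.903 to 1.10), the one nearest to 1 of the 10.

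On the feedback side the values were nearer to each other. Nfkbia stood at 785 CPM (771 to 800) in the knockout and 738 CPM (722 to 754) in the control library, a ratio of 1.06 (1.03 to 1.10). Nfkbiz, which encodes the nuclear IκBζ that works with p50 on secondary response genes such as Lcn2, stood at 455 CPM in the knockout and 370.2 CPM in the control library (1.23, 1.18 to 1.28). Tnfaip3 had a ratio of 1.37 (1.25 to 1.5), and Nfkbie, with 103 knockout and 92 control UMIs, 0.864 (0.646 to 1.16). Bcl3, which encodes another nuclear IκB protein that binds p50 and p52 dimers and can activate as well as repress, stood at 41.1 CPM (37.9 to 44.6) in the knockout and 62.5 CPM (57.9 to 67.3) in the control library, a ratio of 0.658 (0.589 to 0.736). Of the 5 genes counted here as the feedback side, Nfkbiz and Bcl3 therefore are not inhibitors alone.

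All 10 members passed the minimum of 100 UMIs in Müller-like cells: 2 were higher, 1 was lower and 7 were within 1.5-fold. Over all 11636 genes that passed, 4.47% were higher and 16.0% lower, so the share of members on the high side lay above the background and that on the low side near it. The median log2 ratio was 0.35 over the members and −0.15 over all genes. Under TMM scaling, which shifts every Müller log2 ratio by 0.17, 4 members were higher, with Relb and Tnfaip3 added, and 0 lower, where 7.49% of all genes were higher and 10.1% lower. Bcl3 is the call that rests most on how cells are weighed: the ratio was 0.900 as a mean of per-cell CPM and 0.909 with each cell thinned to 5000 UMIs. Whether the reading strand was used in counting is not given in the sources used here. Bcl3 and Nfkb2 each overlap genes on the opposite strand in the GENCODE M21 annotation, so their UMIs are uncertain to that extent. Nfkb1 overlaps Gm43430 on its own strand, and the part of this in its UMIs was not tested.

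**Figure D2:**
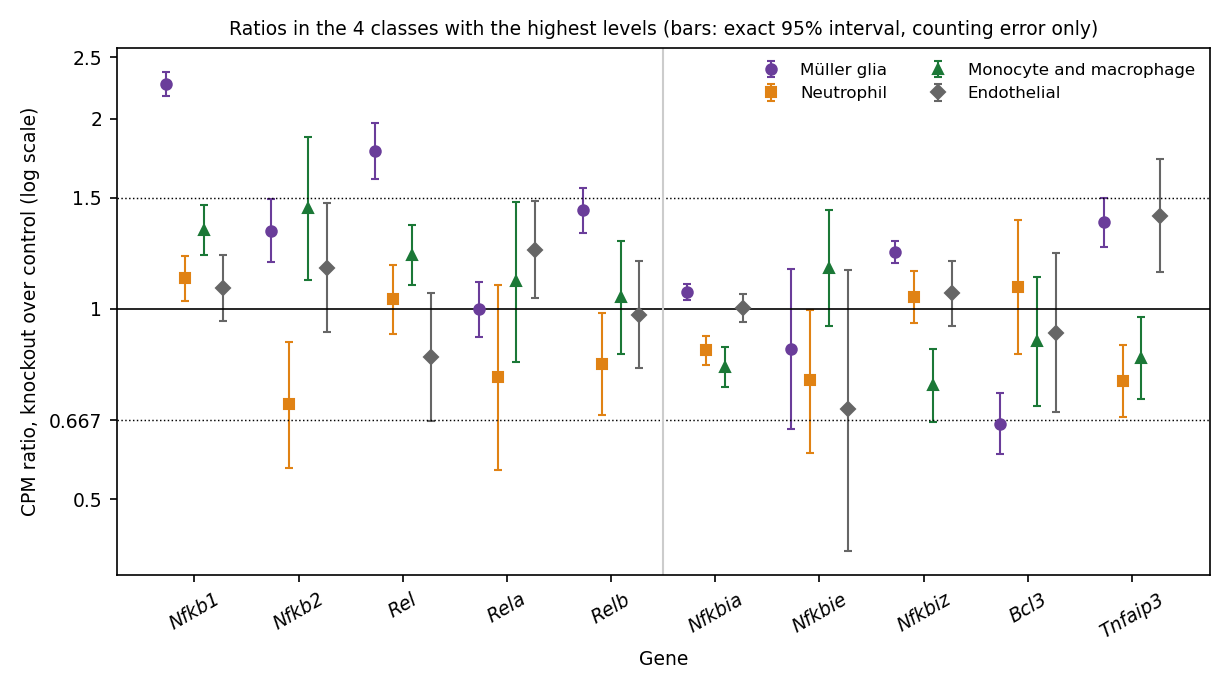
CPM ratio of each gene, knockout over control, on a log2 axis, for Müller-like, neutrophil-like, monocyte and macrophage-like and endothelial-like cells; bars are exact 95% intervals of counting error and dotted lines mark 1.5-fold either way. In Müller-like cells Nfkb1 (2.27) and Rel (1.78) lie above the upper line and Bcl3 (0.658) below the lower one, and no point of the other 3 classes lies outside the lines.

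RNA of other cells differed between the libraries within the Müller-like class. Neutrophil markers summed to 98.7 CPM in knockout cells (8 of 10 markers found, Ly6g and Cxcr2 at 0) and to 201 CPM in control cells (9 of 10, Ly6g at 0). Monocyte and macrophage markers summed to 74.5 CPM in knockout cells (8 of 10, Ms4a7 and Ccr2 at 0) and 91.1 CPM in control cells (9 of 10, Adgre1 at 0), and rod markers to 511 and 1195 CPM in knockout and control cells. Both leukocyte sums and the rod sum were lower in the knockout library, and their part in the member ratios was not tested. Without cells that held 2 or more UMIs of both S100a8 and S100a9, the ratio was 2.31 for Nfkb1, 1.86 for Rel and 0.691 for Bcl3, so that Bcl3 no longer passed 1.5-fold. Erythroid genes summed to 1148 CPM in knockout and 4.69 CPM in control Müller-like cells, with 95.6% of the knockout UMIs in 4 cells.

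Müller-like cells of the libraries fell into different subclusters, which were made without the 10 members and the other pathway genes. Subcluster 0 held 54.6% of knockout and 15.6% of control Müller-like cells. Subcluster 3, with very high Lcn2, held 18.7% of the knockout and 41.4% of the control UMIs of the class, and subcluster 5 held 2 knockout and 80 control cells. Values for the whole class therefore mix different cells, and the members are given here within subclusters 0, 1 and 3 as well, the ones with at least 30 cells of each library and with 9 members past the minimum.

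Nfkb1 lay above its control level within subclusters 0, 1 and 3, by unequal amounts, and did not reach 1.5-fold in subcluster 3. It stood at 685 CPM in knockout and 273 CPM in control cells of subcluster 0 (ratio 2.51, 2.27 to 2.78), at 643 and 353 CPM in knockout and control cells of subcluster 1 (1.82, 1.67 to 1.99) and at 249 and 191 CPM in knockout and control cells of subcluster 3 (1.31, 1.18 to 1.45). Without the 5 cells with most Nfkb1 UMIs in each library the ratios were 2.66, 2.04 and 1.48. Subcluster 0 has 348 knockout and 74 control cells, so leaving out 5 per library trims its control cells more. The values in knockout cells of subclusters 0 and 1 came close to those of knockout monocyte and macrophage-like cells, at 688 CPM.

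Rel did not keep its direction. It stood at 112 CPM in knockout and 51.2 CPM in control cells of subcluster 0 (ratio 2.18, 1.73 to 2.79), at 91.3 and 76.6 CPM in knockout and control cells of subcluster 1 (1.19, 0.978 to 1.46) and at 29 and 32.0 CPM in knockout and control cells of subcluster 3 (0.905, 0.679 to 1.20). Counting error spans a ratio of 1 in subclusters 1 and 3. The order of subclusters was the same in knockout cells for Nfkb1 and Rel, highest in subcluster 0 and lowest in subcluster 3 of these 3.

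Tnfaip3 in subclusters 0 and 3, and Nfkbia in subcluster 3, depended on a few cells. In subcluster 3 Tnfaip3 stood at 167 CPM in knockout and 50.5 CPM in control cells (ratio 3.30), but 204 of the 448 knockout UMIs came from 1 cell, and without the 5 highest cells of each library the ratio was 1.67. In subcluster 0 it stood at 78.7 CPM in knockout and 120.8 CPM in control cells (0.652), where 76 of the 184 control UMIs came from 1 cell, and without the 5 highest cells of each library the ratio was 1.81. The direction in subcluster 0 thus turned with 5 cells per library. These are a larger part of its 74 control cells than of its 348 knockout cells, so the trimming is unequal. Nfkbia had a ratio of 1.26 in subcluster 3, with 695 of 2862 knockout UMIs in 1 cell, the one that also held the 204 Tnfaip3 UMIs, and 0.982 without the 5 highest cells of each library. In subclusters 0 and 1 the highest knockout cell held 65 of 4919 and 86 of 2654 Nfkbia UMIs.

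The other 5 members stayed within 1.5-fold in these subclusters or did not pass the minimum. Nfkb2 had ratios of 1.03, 0.787 (0.632 to 0.982) and 0.948 in subclusters 0, 1 and 3, all below its 1.33 over the whole class. Relb had 1.41 (1.19 to 1.68), 0.982 and 1.20 in the same order, and Rela 1.13, 0.898 and 0.885. Nfkbiz had 1.07, 0.928 and 1.05, each with an interval that spans 1. Nfkbie did not pass the minimum in any of the 3 and stood at 6.27, 7.25 and 10.0 CPM in knockout and 6.56, 4.51 and 9.15 CPM in control cells of subclusters 0, 1 and 3.

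Bcl3 was highest in subcluster 3, which also had the most Lcn2 of the 3, at 66.2 CPM in knockout and 97.0 CPM in control cells (ratio 0.683, 0.570 to 0.814), and its ratios were 0.789 and 0.805 in subclusters 0 and 1, with intervals that reach 1.06 in both. Subcluster 3 holds less of the knockout class than of the control class, as given above. Members were counted over the 9 that passed the minimum in each of these subclusters. In subcluster 0, 2 were higher (Nfkb1 and Rel) and 1 lower (Tnfaip3), where 5.38% of all genes were higher and 10.1% lower. In subcluster 1, 1 was higher (Nfkb1) and 0 lower (all genes: 5.83% and 3.13%). In subcluster 3, 1 was higher (Tnfaip3) and 0 lower (all genes: 4.10% and 7.41%). The median log2 ratio over all 10 members was 0.06 in subcluster 0, −0.13 in subcluster 1 and 0.11 in subcluster 3, against 0.35 over the whole class. Over all genes that passed the minimum it was −0.099, −0.006 and −0.097 in subclusters 0, 1 and 3, against −0.15 over the whole class.

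**Figure D3:**
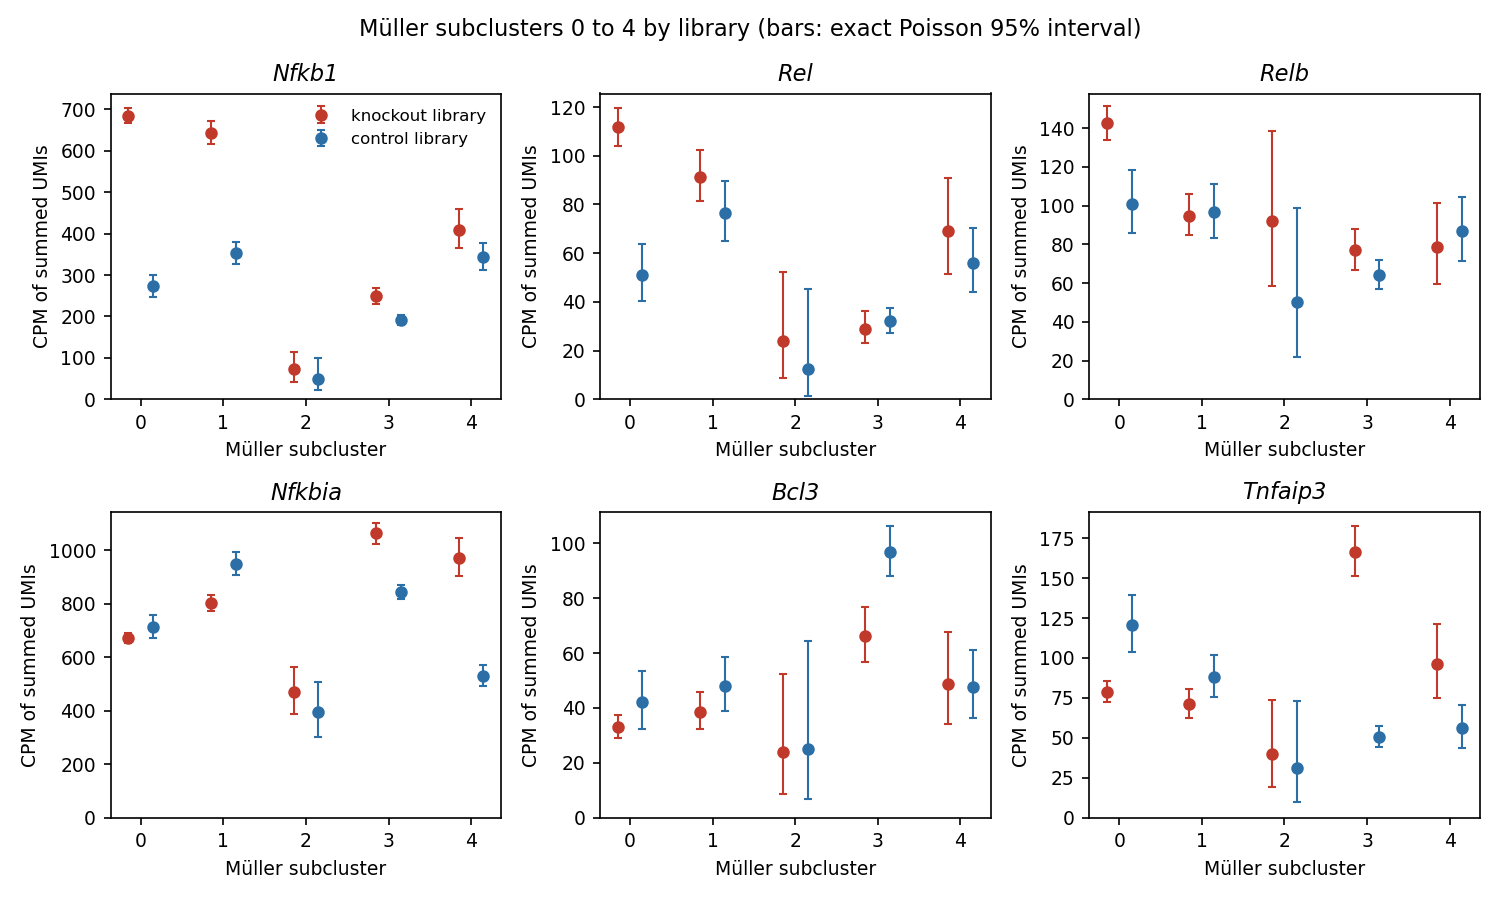
CPM of 6 members in Müller subclusters 0 to 4, the knockout library (red) left of the control library (blue); bars are exact Poisson 95% intervals of counting error. Nfkb1 is above its control level in subclusters 0, 1 and 3, by less than 1.5-fold in subcluster 3, and Rel mainly in subcluster 0. For Tnfaip3 in subcluster 3, 1 cell holds 204 of the 448 knockout UMIs, and the ratio is 1.67 without the 5 highest cells of each library.

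UMIs of the 5 feedback genes were also read per UMI of the 5 subunit genes. This is a ratio of RNA counts and does not measure activation against inhibition, as Nfkbiz and Bcl3 are not inhibitors alone. Knockout Müller-like cells had 1.55 (1.52 to 1.59) and control Müller-like cells 2.57 (2.49 to 2.65). The subunit genes summed to 891 CPM in knockout and 486 CPM in control cells, and the feedback genes to 1382 CPM in knockout and 1247 CPM in control cells. Nfkb1 alone was 25.0% of all member UMIs in knockout and 14.4% in control Müller-like cells. Within subclusters the ratio was 1.24 in knockout and 2.52 in control cells of subcluster 0, and 1.45 in knockout and 2.37 in control cells of subcluster 1. In subcluster 3 it was 3.49 (3.28 to 3.73) in knockout and 3.21 (3.04 to 3.38) in control cells, with intervals that overlap. There 948 of the 4179 knockout feedback UMIs came from the cell with 695 Nfkbia UMIs. Without the cell with most feedback UMIs in each library the ratio was 2.99 in knockout and 3.22 in control cells, and without the 5 such cells 2.54 and 3.35 in knockout and control cells, so the direction turned. Subcluster 4, with 29 knockout and 56 control cells, had 2.37 (2.13 to 2.64) in knockout and 1.88 (1.72 to 2.06) in control cells, opposite to the whole class. Without the 5 such cells it had 1.81 (1.59 to 2.06) in knockout and 1.88 (1.68 to 2.12) in control cells, with intervals that overlap. For the whole class the ratio without the 5 such cells was 1.43 in knockout and 2.53 in control cells. Without the 5 highest cells the direction thus turned in subcluster 3, and the values of subcluster 4 were not told apart by counting error. In subclusters 0 and 1 the direction stayed without those cells. Without them subcluster 0 had 1.22 in knockout and 2.05 in control cells, and subcluster 1 had 1.37 in knockout and 2.27 in control cells. Leaving out 5 cells per library takes the larger part from the library with fewer cells in a subcluster. The cells were picked by their feedback UMIs, which are themselves a part of the ratio.

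Monocyte and macrophage-like cells also had fewer feedback UMIs per subunit UMI in the knockout library, at 1.13 (1.05 to 1.20) against 1.71 (1.63 to 1.80) in the control library. Nfkb1 stood there at 688 CPM in knockout and 516 CPM in control cells (1.33, 1.22 to 1.46) and Nfkbia at 0.810 (0.753 to 0.870) of its control level. Müller markers summed to 1582 CPM in knockout and 4441 CPM in control cells of this class, led by Vim in knockout cells and by Apoe, which macrophages also express, in control cells, and their part in the values was not tested. Neutrophil-like cells had 1.96 (1.85 to 2.07) in the knockout and 2.23 (2.13 to 2.34) in the control library, in the same direction. Endothelial-like cells had 2.86 (2.69 to 3.03) in the knockout and 2.99 (2.80 to 3.19) in the control library. Cone-like and amacrine-like cells had more subunit than feedback UMIs in both libraries. The ratio was 0.715 and 0.444 in knockout and control cone-like cells and 0.585 and 0.472 in knockout and control amacrine-like cells. In both classes the knockout value was the higher one, with intervals apart in cone-like and overlapping in amacrine-like cells.

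**Figure D4:**
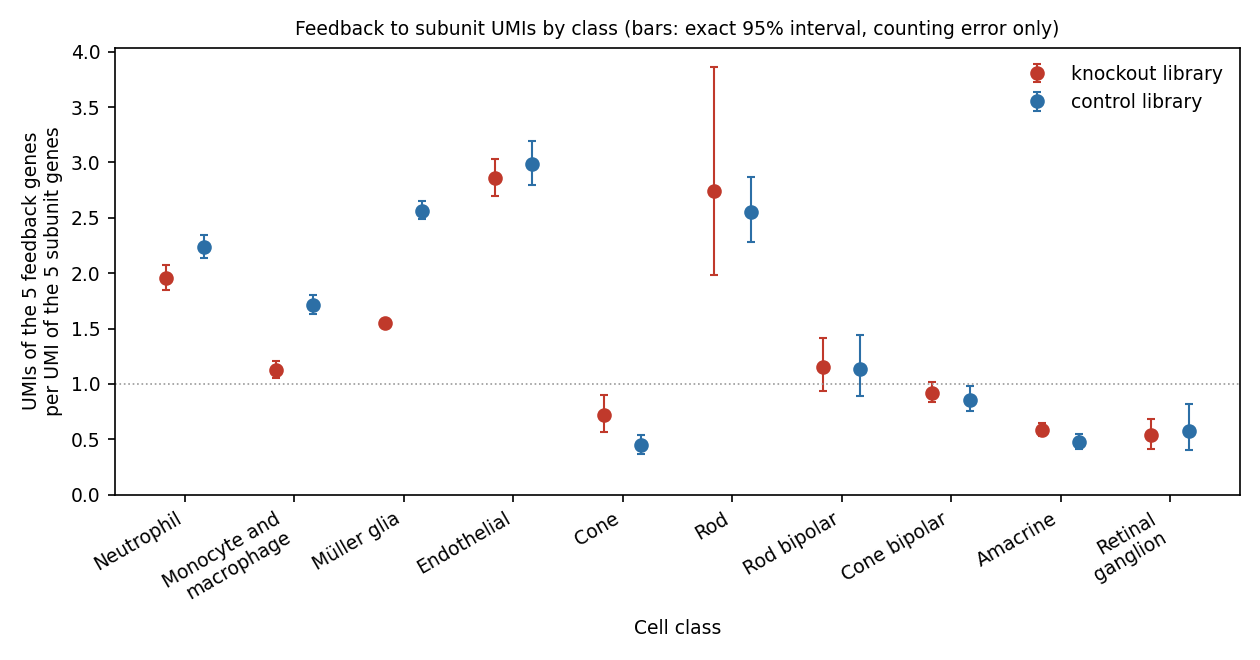
UMIs of the 5 feedback genes per UMI of the 5 subunit genes in 10 cell classes, the knockout library (red) left of the control library (blue); bars are exact 95% intervals of counting error and the dotted line marks 1. Müller-like cells are at 1.55 in the knockout and 2.57 in the control library, and endothelial-like cells at 2.86 and 2.99.

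Outside Müller-like cells few members passed 1.5-fold. In neutrophil-like cells 0 of 10 did, where 3.54% of all genes were higher and 15.6% lower; in monocyte and macrophage-like cells 0 of 10 did (3.42% and 6.27%); and in endothelial-like cells 0 of the 9 that passed the minimum did (2.46% and 5.68%). Nfkb1 in neutrophil-like cells stood at 788 CPM in the knockout and 706 CPM in the control library (1.12, 1.03 to 1.21), and at 750.3 and 771 CPM in knockout and control cells of the main neutrophil-like cluster, which holds 159 of 164 knockout and 170 of 226 control cells. Tnfaip3 had a ratio of 0.770 (0.675 to 0.877) in all neutrophil-like cells, and TMM scaling shifts every log2 ratio there by 0.23. In amacrine-like cells 1 of 6 members was higher, Nfkbiz at 18.3 CPM in knockout and 11.8 CPM in control cells (all genes: 2.90% higher and 2.38% lower). In rod-like cells 2 of 7 were lower, Nfkb2 at 27.1 CPM in knockout and 47.0 CPM in control cells and Nfkbiz at 25.2 and 47.6 CPM in knockout and control cells (10.9% higher and 19.2% lower); these rest on 14 and 13 knockout UMIs.

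Around the 10 members, 4 lists of other pathway genes were read in Müller-like cells. Of the IKK complex and its activating kinases, 0 of 11 were higher and 1 lower, the IKK-related kinase gene Ikbke at 3.41 CPM in the knockout and 5.23 CPM in the control library. The kinase gene Map3k8 had the largest ratio of that list (1.15), and Map3k14 (53.7 CPM in the knockout and 49.0 CPM in the control library) and Tab2 (51.7 and 72.8 CPM in the knockout and control libraries) the highest levels. Of the adaptors that carry the signal from receptors to IKK, 11 of 12 passed the minimum, 0 were higher and 1 was lower, the kinase gene Ripk1 at 21.9 CPM in the knockout and 33.5 CPM in the control library; Traf6, the ubiquitin ligase of the toll-like receptor branch, had the largest ratio at 1.43, and the kinase genes Irak2 (0.893) and Irak1 (0.935) the highest levels. Of 8 other inhibitors with enough UMIs, 0 were higher and 0 lower, with Nfkbib, which encodes IκBβ, at 1.40 and the RNase gene Zc3h12a at 0.724 at the ends and Commd1 (0.946) and Tnip1 (0.951) at the highest levels. The median log2 ratio was −0.16, −0.10 and −0.08 for these lists, beside −0.15 over all genes. Of all genes, 4.47% were higher and 16.0% lower.

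Of 19 target genes that passed the minimum, 5 were higher and 2 lower (all genes: 4.47% higher and 16.0% lower). The share of targets on the low side thus did not exceed that of all genes. Their median log2 ratio was 0.10, beside −0.15 over all genes. The chemokine gene Cxcl2 stood at 681 CPM in the knockout and 356 CPM in the control library (1.91, 1.84 to 1.98) and Cxcl10 at 296 and 156 CPM in the knockout and control libraries (1.89, 1.79 to 2.00). The stress gene Ier3 (ratio 1.67), Gch1 of tetrahydrobiopterin synthesis (1.67) and the prostaglandin synthase gene Ptgs2 (1.58) were the others. C3, the central complement component, was lower at 709 CPM in the knockout and 1169 CPM in the control library (0.606), and Il1b, also abundant in neutrophils, at 5.99 and 25.8 CPM in the knockout and control libraries (0.232); it moved with the sum of neutrophil markers given above, whose part was not tested. Cebpd, a transcription factor gene, and Lcn2 were among the most abundant: Cebpd stood at 2889 CPM in the knockout and 2536 CPM in the control library (1.14). Lcn2, the most abundant target, stood at 29978 CPM in the knockout and 37990 CPM in the control library (0.789). Over the whole class, Ccl2 at 1.08 and the adhesion gene Icam1 at 0.970 were near 1. Ccl2 differed between subclusters, with ratios of 0.982, 0.826 and 1.61 in subclusters 0, 1 and 3, and 1.92 in subcluster 4. The part of single cells in these ratios was not tested, and the other target values are for the whole class.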

How the data were processed

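Retinal cells of 1 knockout and 1 control pool were counted. The deposited values are UMI counts per gene and barcode, made by the authors with Cell Ranger 6.0.0 on mm10, per the submitters' processing notes; Seurat 5.2.1 is named there too. Barcode and gene lists were deposited as other files. From these counts, cells with at least 500 genes and under 25% mitochondrial UMIs were kept and clustered in Seurat 5.3.0 (R 4.3.3; 1972 of 2000 variable genes after the NF-κB genes were left out, 11 components, resolution 1.0, Müller-like cells again at 0.4). Clusters were named from 18 marker lists. A name needed a mean log2 fold of at least 1.0 over the median cluster, a lead of 1.0 over the next class and 3 markers with 10 UMIs. No lead was asked between rod and cone bipolar cells, between monocytes and macrophages and microglia, or over erythroid genes. Among a cluster's 10 top genes, no other class could have more markers, and shallow clusters needed a marker of their own. These limits were set after the data were seen. All 10 members are named; the likeness and list rules took the extremes among genes with at least 500 and 100 UMIs; pathway genes past 1.5-fold and Atg5 were named after their values were seen. The members and lists were chosen with earlier results of these data known. UMIs were summed per class and library. With 1 library per group no test was possible; intervals are exact Poisson for levels, exact conditional binomial for ratios and Clopper-Pearson for shares, at 95%, and cover counting error only. Libraries held 50676223 UMIs (knockout) and 43669961 UMIs (control). A count of 0 allows up to 3 counts. Scrublet (scanpy 1.11.5) called 0 doublets in both libraries, so it did not work and none were removed. The ratio and interval calculation was checked on simulated counts with known folds, which says nothing of the spread between animals. TMM factors came from edgeR 4.0.16, used for scaling only.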

Additional observations from a re-analysis of the deposited data

Results flagged for a closer look

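In 7 pairs of cell classes with at least 30 cells in each library, a member was above its control level in one class and below it in the other, with both counting intervals away from 1 and ratios at least 2 times apart. Without the limit of 2 times there were 20 such pairs, over 6 of the members. None of these differences between classes was tested, because each group is 1 library. Such pairs were not counted over all genes, so their number cannot be read as many or few. Of all genes, 19.2% were lower in rod-like and 15.6% in neutrophil-like cells. TMM scaling shifts log2 ratios by 0.06 in rod-like and 0.23 in neutrophil-like cells, and the pairs were not recounted with it. The rod-like ratios below rest on the few knockout UMIs given above. Nfkb1 was 2.27 times the control level in Müller-like cells and 0.703 times (0.571 to 0.863) in cone-like cells, where it rests on 149 knockout and 261 control UMIs. Nfkb2 was 1.33 times the control level in Müller-like cells and 1.44 times in monocyte and macrophage-like cells, but 0.577 times (0.308 to 0.997) in rod-like cells and 0.707 times (0.560 to 0.887) in neutrophil-like cells; of these 4 pairs, Müller-like with neutrophil-like cells alone lay less than 2 times apart, at 1.88. Nfkbiz was 1.23 times the control level in Müller-like cells and 1.54 times in amacrine-like cells, but 0.529 times (0.276 to 0.931) in rod-like cells and 0.758 times (0.663 to 0.865) in monocyte and macrophage-like cells; of these 4 pairs, Müller-like with monocyte and macrophage-like cells alone lay less than 2 times apart, at 1.62.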

How the results depend on the processing

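Over 13 alternatives on the whole Müller-like class, Nfkb1 stayed between 2.24 and 2.62 times and Rel between 1.70 and 1.99 times the control level. Bcl3 ranged from 0.628 to 0.909 and Nfkbia from 1.01 to 1.34. TMM scaling gave 4 members higher, 0 lower and a median log2 ratio of 0.52. The count of lower members was also 0 with cells thinned to 5000 UMIs (median 0.22), with the mean of per-cell CPM, without the 5 cells with most UMIs of a gene, with free RNA taken away, without cells with S100a8 and S100a9 (chosen after seeing the data), and within subclusters 1 and 3. Within subcluster 3, 1 member was higher, Tnfaip3. The median was 0.064, −0.13 and 0.11 within subclusters 0, 1 and 3. Rel turned to 0.905 within subcluster 3, and to 0.721 there without the 5 cells with most UMIs (chosen after seeing the data); the cause was not tested. Feedback UMIs per subunit UMI turned direction within subcluster 3 without the 5 cells with most feedback UMIs (chosen after seeing the data). In subcluster 4 the libraries were then not told apart by counting error. Of 200 levels by class and library, 45 moved outside their interval when cells were called one by one from markers, 5 with at least 1000 genes per cell and 1 without the highest doublet scores. Small classes and rod-like cells are limited by depth. No paired analysis was possible because each group has 1 library.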
